A study of Homo sapiens with 11 samples.

Results

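The genes described are 10 genes of the mesenchymal state that invasive breast cancer cells take on: VIM, ZEB1, CD44, FN1, SNAI2, TWIST1, AXL, CDH2, SPARC and TGFBI. They were chosen by name and not by a measured value, though with earlier results of these data known. They were taken as hg19 gene spans with 5 kb added at each end, 825.4 kb in all. The 10 genes stand beside 59778 gene symbols in the RefSeq table at hand. Lists of enriched intervals came from chromatin immunoprecipitation and sequencing (ChIP-seq) of MDA-MB-231 cells, an established human triple-negative breast cancer line grown in medium with serum and blasticidin. WT cells with normal mdig protein and KO cells without it both came out of CRISPR-Cas9 work. Whether the KO cells are 1 clone or a pool is not stated in the labels. The gene of mdig has the symbol RIOX2, and its product is also known as MINA53, hence the label MINA for the antibody raised to it. Antibodies to H3K4me3, H3K36me3, H3K9me3, H4K20me3 and MINA were each used on 1 WT and 1 KO chromatin sample. Of the 229591 intervals in the 10 lists, 85 overlapped a gene or its 5-kb flanks. These are called intervals at the genes.

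An interval is a stretch the authors' caller found enriched, and it has a position and a width but no height. The widths and covered lengths below are thus lengths in kb, not levels of a mark. There was 1 library per antibody and genotype, so no value has a replicate error, no test was run, and each difference describes the 2 libraries compared. A list of a deeper or cleaner library holds more and wider intervals, and the depth of these libraries is unknown. Over chromosomes 1 to 22 and X the KO lists covered 0.844 of the WT length for H3K4me3, 1.00 for H3K36me3, 1.20 for H3K9me3, 2.23 for H4K20me3 and 0.298 for MINA. The MINA list of the KO library still held 7859 intervals, against 16353 in WT. The values at the genes are to be read beside these ratios.

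In the epithelial to mesenchymal transition, cells lose their junctions with neighbours and become motile. Transcription factors that bind E-box sites, among them ZEB1, SNAI2 (SLUG) and TWIST1, repress epithelial genes such as the one for E-cadherin. Effector genes of the mesenchymal state encode vimentin filaments (VIM), the cadherin of mesenchymal cells (CDH2, N-cadherin), the hyaluronan receptor CD44 and the receptor kinase AXL. Others encode proteins of the extracellular matrix, namely fibronectin (FN1), the collagen-binding SPARC and the TGF-beta induced protein TGFBI. H3K4me3 lies at active promoters and H3K36me3 over transcribed gene bodies. H3K9me3 and H4K20me3 are marks of silent heterochromatin.

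The promoter letters of 4 genes, picked by hand, are shown. They come from the RefSeq promoter table on GRCh38.p14 (250 bases before to 50 after a start), which held 16 entries for 8 of the 10 genes. The intervals are on hg19, so an entry is matched to a gene by its symbol and not by position. In the first pair, capitals mark the E-box CACCTG, or CAGGTG when read from the other strand, the site that ZEB and SNAI factors bind. It was found in 3 of the 16 entries, with 3 copies in the third of 7 ZEB1 entries counted from upstream, 1 copy in the first ZEB1 entry and 1 in the upstream AXL entry. Of 35116 promoters of the same length 20.6% hold it. CATATG was in none of the 16 entries and is in 3.04% of all promoters. The general E-box CANNTG, which includes both, is in 68.7%. Among the genes it was in some or all entries of ZEB1, AXL, CDH2 and SPARC. It was in none of VIM, CD44, FN1 and TGFBI. The ZEB1 entry shown is the one of its 7 with the most copies. It is chr10:31318966-31319265 and the AXL entry chr19:41218973-41219272, both on the plus strand.
ZEB1: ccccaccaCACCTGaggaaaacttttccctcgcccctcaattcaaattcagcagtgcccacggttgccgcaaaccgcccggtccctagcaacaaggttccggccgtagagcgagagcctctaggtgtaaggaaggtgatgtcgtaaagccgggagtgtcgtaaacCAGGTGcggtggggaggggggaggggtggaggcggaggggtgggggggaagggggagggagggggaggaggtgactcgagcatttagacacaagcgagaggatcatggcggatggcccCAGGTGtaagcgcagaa
AXL: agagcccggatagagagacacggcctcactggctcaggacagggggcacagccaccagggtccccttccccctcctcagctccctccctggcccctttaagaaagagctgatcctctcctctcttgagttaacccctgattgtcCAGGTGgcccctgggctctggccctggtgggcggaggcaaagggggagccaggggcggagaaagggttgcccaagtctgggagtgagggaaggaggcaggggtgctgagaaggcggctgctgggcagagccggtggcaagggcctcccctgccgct

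The second pair sets a promoter under H3K4me3 (TGFBI) beside one under H3K9me3 (CDH2), and was chosen after the intervals had been seen. Capitals mark CG dinucleotides, where DNA methylation can occur. TGFBI held 27 and the upstream CDH2 entry 23, beside a median of 14 over all promoters of this length (lower quartile 4, upper quartile 28). Both counts lay between the median and the upper quartile. MINA lay near both 5′ ends in WT and H4K20me3 near both in KO, while H3K4me3 was listed at TGFBI only and H3K9me3 lay over the 5′ end of CDH2 only. Among the other genes with H3K4me3, VIM held 10, CD44 18 and FN1 38, the 2 AXL entries held 7 and 17 from upstream, and the 7 ZEB1 entries held between 7 and 35. SPARC, which had no H3K4me3 interval, held 11, and the downstream CDH2 entry 4. The TGFBI entry is chr5:136028738-136029037 on the plus strand and the CDH2 entry chr18:28177081-28177380 on the minus strand.
TGFBI: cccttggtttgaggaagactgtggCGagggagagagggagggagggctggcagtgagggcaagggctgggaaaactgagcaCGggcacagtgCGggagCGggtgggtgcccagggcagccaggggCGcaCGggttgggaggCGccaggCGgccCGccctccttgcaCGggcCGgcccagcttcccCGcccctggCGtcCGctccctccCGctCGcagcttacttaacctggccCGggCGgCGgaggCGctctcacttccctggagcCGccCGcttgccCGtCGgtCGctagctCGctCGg
CDH2: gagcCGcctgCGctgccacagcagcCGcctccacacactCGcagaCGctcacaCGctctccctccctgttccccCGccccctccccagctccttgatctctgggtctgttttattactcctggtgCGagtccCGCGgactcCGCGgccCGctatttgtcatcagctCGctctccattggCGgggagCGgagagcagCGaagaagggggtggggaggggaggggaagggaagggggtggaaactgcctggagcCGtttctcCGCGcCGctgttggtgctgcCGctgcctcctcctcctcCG

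The 10 genes fell into different chromatin states in WT cells, and H3K4me3 kept to the same genes in KO. An interval lay within 2 kb of the 5′ end of 7 genes in both genotypes, namely VIM, ZEB1, CD44, FN1, SNAI2, AXL and TGFBI. The share over all 5′ ends was not counted, so this count is not a result particular to the genes. TWIST1, CDH2 and SPARC had no H3K4me3 interval in either genotype anywhere in their windows. Of the 9 WT intervals at the genes 8 were found in KO (88.9%, Wilson 95% interval 56.5% to 98.0%, counting error only), beside 85.1% of all WT intervals. The exception was a small one of 1.6 kb inside CD44, 26.79 to 28.39 kb from the 5′ end. All 8 KO intervals were found in WT, beside 5.85% of all KO intervals with no WT interval over them.

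**Figure D1:**
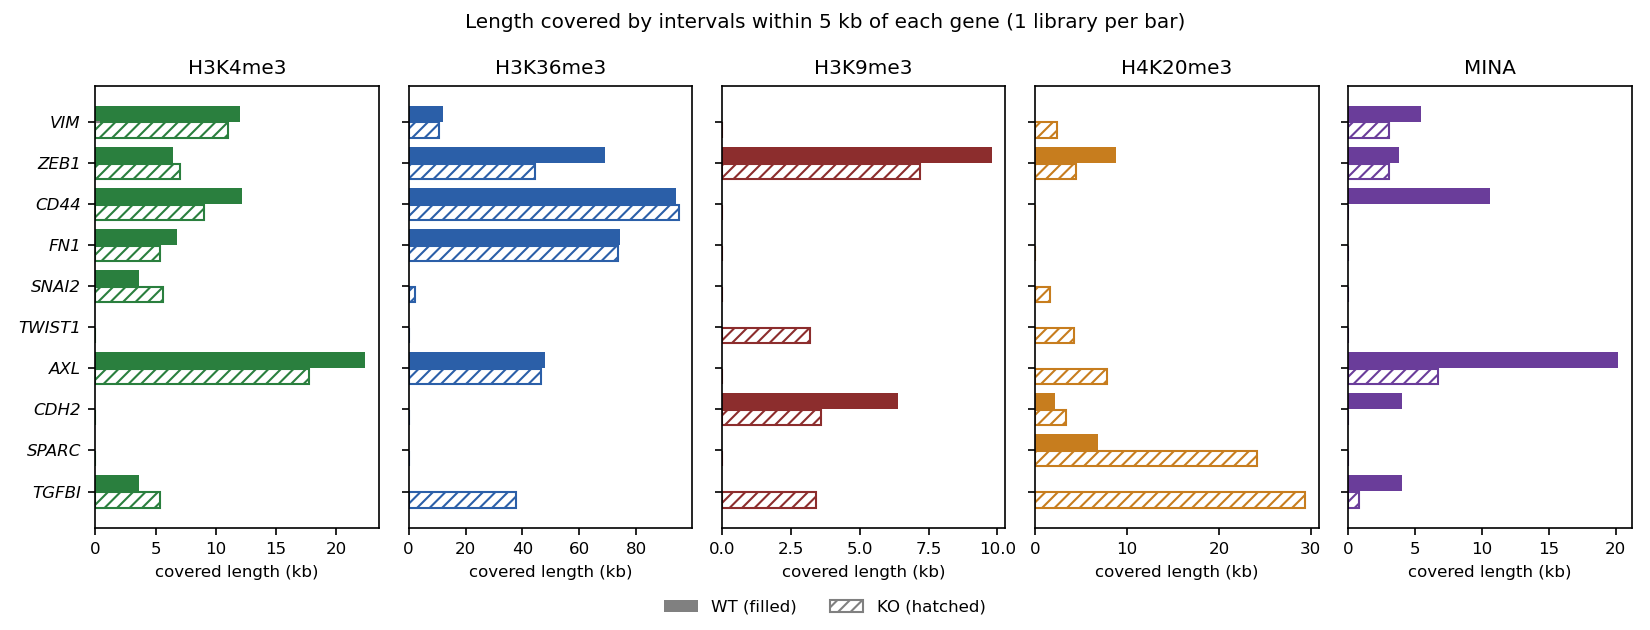
Length in kb covered by intervals of each antibody within the span of each gene plus 5 kb, for WT (filled bars) and KO (hatched bars), 1 library per bar and a separate scale per antibody. H3K4me3 is present at the same 7 genes in both genotypes, while H4K20me3 is listed at 3 genes in WT and 8 in KO and MINA at 6 genes in WT and 4 in KO.

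Among the transcription factors, ZEB1 (chromosome 10 from 31608100 to 31818750, plus strand) had an H3K4me3 interval of 6.40 kb in WT and 7.0 kb in KO. Both began 2.5 kb upstream of the 5′ end, and the KO one reached 4.50 kb downstream, against 3.90 kb in WT. SNAI2 (chromosome 8 from 49830230 to 49834000, minus strand) had 3.60 kb in WT and 5.60 kb in KO, with the upstream edge 1.00 kb from the 5′ end in WT and 2.40 kb in KO. TWIST1 (chromosome 7 from 19155090 to 19157300, minus strand) had none. The mark was thus wider in KO at both factors that carried it, by 0.6 kb at ZEB1 and by 2.0 kb at SNAI2.

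VIM (chromosome 10 from 17270250 to 17279600, plus strand) carried H3K4me3 over nearly its whole short span, 12 kb in WT and 11 kb in KO. Its upstream edge stood at 3.65 kb in WT and 2.45 kb in KO, and the downstream edge at 8.35 and 8.55 kb. Within the gene span alone, without the flanks, the KO length at VIM was 0.2 kb longer. CD44 (chromosome 11 from 35160410 to 35253950, plus strand) had 10.6 kb at its 5′ end in WT, from 2.01 kb upstream to 8.59 kb downstream, and 9.0 kb in KO, from 1.61 kb upstream to 7.39 kb downstream. AXL (chromosome 19 from 41725100 to 41767680, plus strand) had the widest H3K4me3 interval of the 10 genes, 16.8 kb in WT and 12.6 kb in KO. Only 3.65% of the WT intervals and 4.82% of the KO intervals were at least as wide as these. Its edges in WT were 5.10 kb upstream and 11.70 kb downstream, and in KO 3.10 and 9.50 kb, so it was shorter at both ends. A further interval in the AXL window, of 10.2 kb in WT and 8.20 kb in KO, began at the 3′ end of the gene, 41.90 kb from the 5′ end in WT. It ran to 52.10 kb in WT, and AXL is 42.6 kb long, so most of it lay past the gene. Neighbouring genes were not annotated here, so it may belong to another gene.

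At the matrix genes, FN1 (chromosome 2 from 216225160 to 216300900, minus strand) had 6.80 kb in WT and 5.40 kb in KO, with the upstream edge at 3.10 and 1.90 kb. TGFBI (chromosome 5 from 135364580 to 135399510, plus strand) had 3.60 kb in WT and 5.40 kb in KO, and its upstream edge stood at 0.78 and 2.18 kb. SPARC (chromosome 5 from 151040650 to 151066730, minus strand) had none. SNAI2 and TGFBI were thus the genes where KO was the wider by the larger factor, 1.56 and 1.5, and the other 5 genes with the mark had ratios of covered length from 0.738 at CD44 to 1.09 at ZEB1. Where WT and KO intervals that overlap were joined into regions, with those in 1 genotype only counted as past any fold, 2 of 9 H3K4me3 regions at the genes were at least 1.5 times longer in KO, as were 8.24% of all 20146 regions, and 1 of 9 was at least 1.5 times shorter, as were 26.7% of all. TGFBI stood exactly at that fold, and neither it nor SNAI2 reached 2-fold. At both genes most of the added length lay upstream, and within the span alone KO was longer by 0.6 kb at SNAI2 and 0.4 kb at TGFBI. The median KO over WT ratio of the 8 regions present in both genotypes was 0.883, beside 0.889 over all 16249 such regions.

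**Figure D2:**
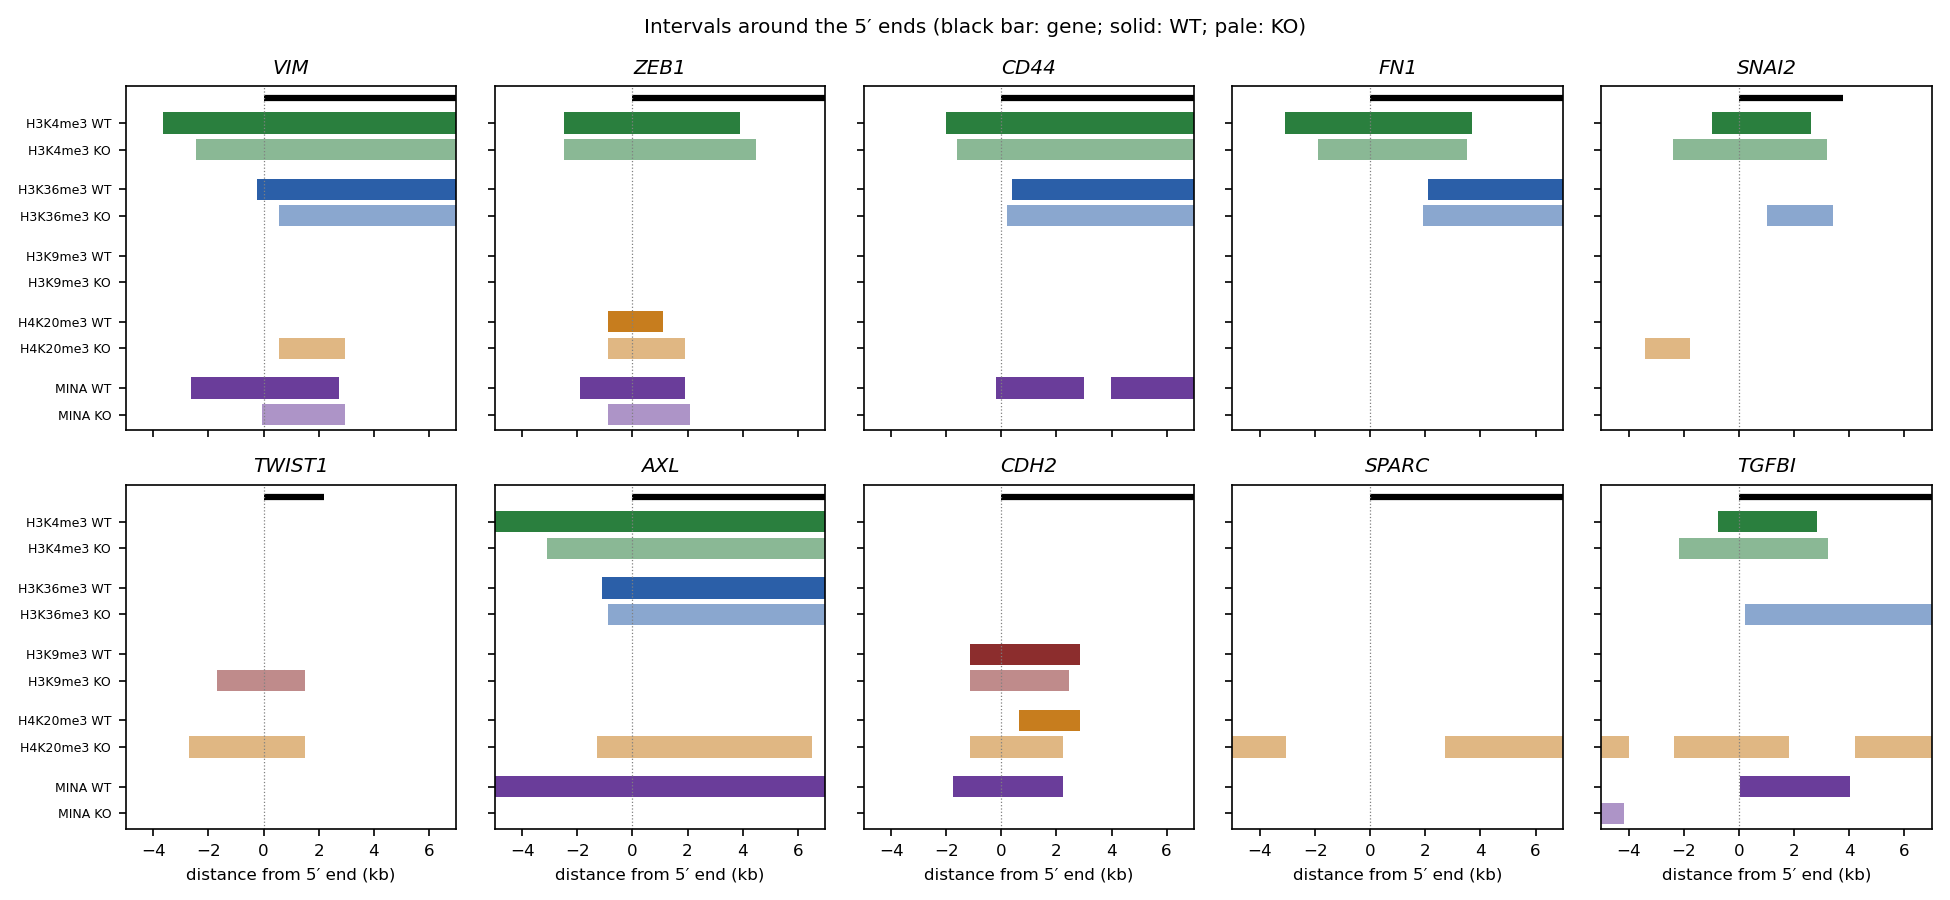
Intervals of the 10 lists from 5 kb upstream to 7 kb downstream of the 5′ end of each gene (x axis in kb, downstream positive), WT in solid and KO in pale colour, cut off at the edges of the view. The H3K4me3 bars of SNAI2 and TGFBI reach farther upstream in KO, and those of VIM, CD44, FN1 and AXL farther in WT. H4K20me3 bars lie within 2 kb of the 5′ ends of 7 genes in KO and of 2 in WT. SPARC also has H4K20me3 bars in the view in KO, farther than 2 kb from its 5′ end.

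H3K36me3, which follows transcription, covered the bodies of CD44, FN1 and AXL almost whole in both genotypes. CD44 had a single interval of 94.0 kb in WT and 95 kb in KO, among the widest 1.30% and 1.25% of the lists. FN1 had 74.2 kb in 2 WT intervals and 73.6 kb in 3 KO intervals, which is 86.5% and 85.8% of its window. AXL had 47.9 kb and 46.5 kb in its window, and VIM 12 kb and 10.6 kb. A second WT interval in the AXL window, from 41770201 to 41866000, began past the end of the gene, and most of it lay beyond the window. It was the widest of the antibody in the windows of the genes, 95.8 kb. The joined region it belongs to held 95.8 kb in WT and 92.4 kb in KO, where it was split. These 4 genes had ratios of 0.883 to 1.01, close to the 1.00 of the whole lists.

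TGFBI differed from them. In WT no H3K36me3 interval touched the gene or its 5-kb flanks, although H3K4me3 lay at its 5′ end. In KO 1 interval of 37.6 kb ran from 135364801 to 135402400, which is from 0.22 kb to 37.82 kb of the 5′ end and past the 3′ end of the gene. Of the 2586 H3K36me3 intervals listed in KO only, 19 (0.735%) were at least as wide. SNAI2 likewise had none in WT and a small one of 2.40 kb in KO over its body, and 92.8% of the KO-only intervals were at least as wide as that. These were the 2 of 14 KO intervals at the genes not found in WT, beside 14.5% of all KO intervals.

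ZEB1 showed the opposite difference. H3K36me3 covered 69.2 kb of its window in WT and 44.4 kb in KO, a ratio of 0.642. An interval of 10.2 kb from 31764201 to 31774400 was listed in WT only, and 17.1% of the 2545 WT-only intervals were at least as wide. It was the 1 of 11 WT intervals at the genes not found in KO, beside 14.5% of all WT intervals. The interval that began 67.70 kb from the 5′ end was 11.4 kb wide in WT and 6.0 kb in KO. The widest, of 32.0 kb at the 3′ part of the gene, corresponded to 2 KO intervals of 4.40 and 21.2 kb with a gap of 2 kb between them, from 185.90 to 187.90 kb. In all, 3 of 12 H3K36me3 regions at the genes were at least 1.5 times shorter in KO, all in ZEB1, beside 21.6% of all 17319 regions, and 2 of 12 were at least 1.5 times longer, beside 20.5%. At 2-fold the first count was 1.

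The sum over the 10 genes was 297.3 kb in WT and 310.1 kb in KO, a ratio of 1.04 that rested on TGFBI: without the 2 genes of chromosome 5, TGFBI and SPARC, it was 0.917. TWIST1, CDH2 and SPARC had no H3K36me3 interval in either genotype, the same 3 genes that lacked H3K4me3. H3K36me3 touched the H3K4me3 interval of the 5′ end at 4 of 7 genes in WT (VIM, CD44, FN1 and AXL), beside 39.3% of all WT H3K4me3 intervals and 52.3% of the 13432 that were at least 3.6 kb wide, the narrowest width at these genes in WT. In KO it did so at 6 of 7, with SNAI2 and TGFBI added, beside 44.6% of all KO intervals and 70.6% of the 8459 that were at least 5.4 kb wide, the narrowest width in KO.

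**Figure D3:**
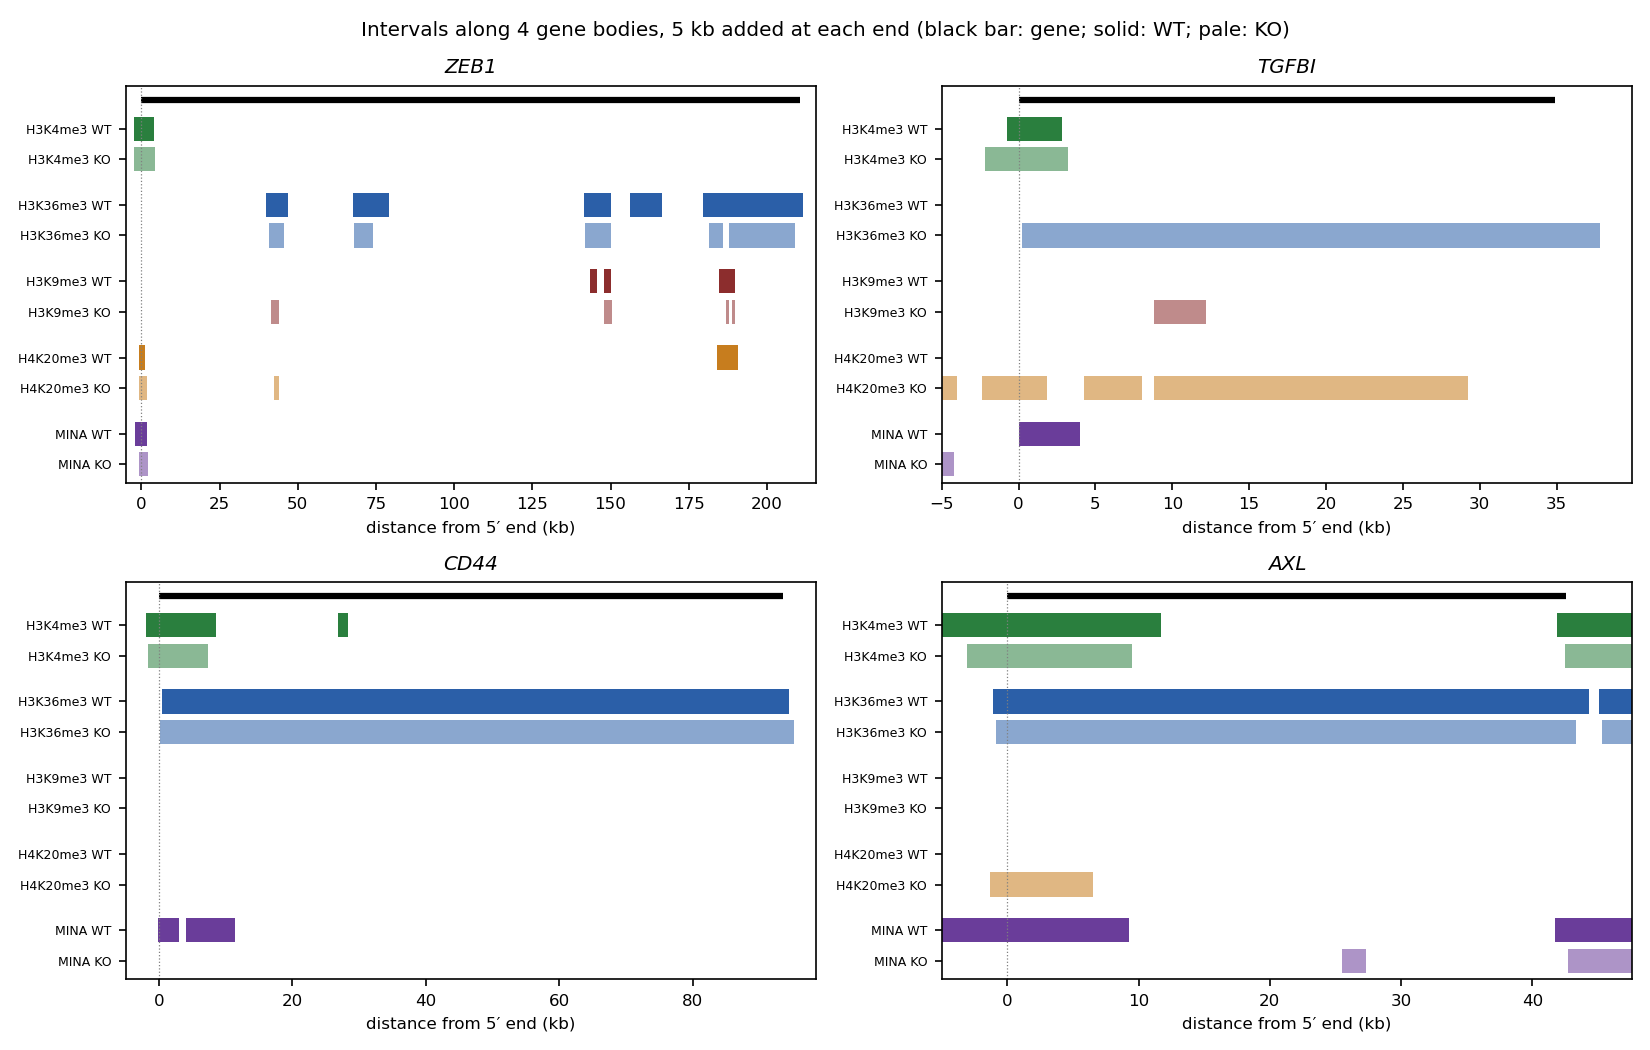
Intervals of the 10 lists along ZEB1, TGFBI, CD44 and AXL, with 5 kb added at each end (x axis in kb from the 5′ end, WT solid, KO pale). TGFBI has an H3K36me3 bar of 37.6 kb in KO and none in WT, ZEB1 has 69.2 kb of H3K36me3 in WT against 44.4 kb in KO, and CD44 and AXL have nearly the same H3K36me3 in both.

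H3K9me3 was rare at these genes, and lay at the 5′ ends of CDH2 and TWIST1 and inside ZEB1 and TGFBI. At CDH2 (chromosome 18 from 25530930 to 25757450, minus strand) an interval covered the 5′ end in both genotypes, 4.0 kb in WT and 3.60 kb in KO, both starting 1.15 kb upstream. A second one of 2.40 kb, 199.85 kb into the gene, was listed in WT only. At TWIST1 an interval of 3.20 kb from 19155801 to 19159000 lay across the 5′ end in KO and there was none in WT. Of the H3K9me3 intervals listed in KO only, 42.4% were at least as wide, so its size was ordinary. TGFBI had 3.40 kb in KO, from 8.82 to 12.22 kb into the gene, and none in WT.

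In ZEB1 H3K9me3 lay far from the 5′ end and on H3K36me3. All 9.80 kb of it in WT overlapped H3K36me3, and 5.80 of the 7.20 kb in KO. The widest WT interval, of 5.20 kb from 31792801 to 31798000, corresponded to KO intervals of 1.00 and 1.20 kb. The first of these, from 186.90 to 187.90 kb, lay in the gap that parted the 2 KO intervals of H3K36me3. Intervals of 2.40 kb were listed in 1 genotype only on both sides, 1 in WT from 143.30 to 145.70 kb and 1 in KO from 41.50 to 43.90 kb. The KO one held an H4K20me3 interval of 1.60 kb that was also listed in KO only. VIM, CD44, FN1, SNAI2, AXL and SPARC had no H3K9me3 interval in either genotype. None of the 7 H3K4me3 intervals at 5′ ends met H3K9me3 in WT or in KO, beside 5.88% and 5.57% of all H3K4me3 intervals. Of the 5 WT intervals at the genes 2 were not found in KO, beside 31.4% of all, and 3 of 7 KO intervals were not found in WT, beside 47.2% of all. By region, 3 of 8 were at least 1.5 times longer in KO (48.4% of all 64920) and 3 of 8 at least 1.5 times shorter (31.4% of all). The summed ratio of 1.07 turned to 0.967 when the 5-kb flanks were left out.

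H4K20me3 was listed at 3 genes in WT and at 8 in KO, and the covered length summed over the 10 genes was 17.8 kb and 77.4 kb, a ratio of 4.35 beside 2.23 for the whole lists. That sum rested on TGFBI and SPARC, and without them the ratio was 2.16. Of the 14 KO intervals at the genes 10 were not found in WT, beside 80.4% of all KO intervals. Of the 15 regions 12 were at least 1.5 times longer in KO, beside 74.1% of all 28470 regions, so the share at these genes was near that of the genome. Of the 4 WT intervals 1 was not found in KO, beside 44.6% of all, and 1 of 15 regions was at least 1.5 times shorter in KO, beside 18.1%.

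The longest stretches were at the 2 genes of chromosome 5, where the 5 Mb on either side also held more H4K20me3 in KO, 19.8 times the WT length around TGFBI and 12.7 times around SPARC. TGFBI had no H4K20me3 in WT and 29.4 kb in KO, in 4 intervals from upstream of the gene to 29.22 kb into it. The longest of them spanned 20.4 kb from 135373401 to 135393800, and 2.37% of the 20357 KO-only intervals were at least as wide. The others were 10.4 kb that ended 3.98 kb upstream, 4.2 kb over the 5′ end, from 2.38 kb upstream to 1.82 kb downstream, and 3.8 kb from 4.22 to 8.02 kb. Of the covered length 25.8 kb lay on the H3K36me3 interval that was listed in KO only, and 4.0 kb on H3K4me3. Whether marks that overlap lie on the same molecules or in different cells of the bulk sample cannot be told apart. SPARC had 6.80 kb in WT and 24.1 kb in KO, so that 66.9% of its window was covered in KO. Of its KO intervals 1 was not found in WT, of 6.80 kb from 151057201 to 151064000, while 6.80 kb from 151049201 to 151056000 were listed in WT. In both genotypes SPARC had none of the other 4 antibodies' intervals, and H4K20me3 was its only mark.

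At the 5′ ends the mark was near 2 genes in WT (ZEB1 and CDH2) and near 7 in KO (with VIM, SNAI2, TWIST1, AXL and TGFBI added). With 1 kb on either side the KO count was 6, and with 5 kb it was 8. The whole H4K20me3 lists held 8539 intervals in WT and 25318 in KO. The share over all 5′ ends was not counted, so these counts are not a result particular to the genes. AXL had none in WT and 7.80 kb in KO from 41723801 to 41731600, within its H3K4me3 interval. VIM had 2.40 kb in KO from 0.55 to 2.95 kb downstream of the 5′ end, also within H3K4me3. SNAI2 had 1.60 kb in KO that began 3.40 kb and ended 1.80 kb upstream, of which 0.6 kb lay on H3K4me3. TWIST1 had 4.2 kb in KO, which held the whole of its H3K9me3 interval. Of the H4K20me3 intervals listed in KO only, 18.1% were at least as wide as that of AXL. The share was 43.8% for TWIST1 and for the TGFBI 5′ end, 74.2% for VIM and 90.2% for SNAI2. At CDH2 the mark stayed with H3K9me3 at the 5′ end, 2.20 kb in WT and 3.40 kb in KO, all of it on H3K9me3 in both genotypes. ZEB1 kept an interval over its 5′ end, 2.0 kb in WT and 2.80 kb in KO. The 6.80 kb that lay in WT from 31792201 to 31799000, around its widest H3K9me3 interval, were not listed in KO.

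H4K20me3 therefore lay on the H3K4me3 interval of the 5′ end at 1 of 7 genes in WT and at 5 of 7 in KO. Over the whole lists 10.6% of H3K4me3 intervals overlapped H4K20me3 in WT and 25.1% in KO. Among the intervals at least as wide as the narrowest at these genes the share was 11.4% in WT and 32.4% in KO. The 2 genes with H3K4me3 that stayed free of H4K20me3 in both lists were CD44 and FN1.

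The MINA antibody gave intervals near the 5′ ends of 6 genes in WT (VIM, ZEB1, CD44, AXL, CDH2 and TGFBI) and of 2 in KO (VIM and ZEB1). The whole lists held 16353 intervals in WT and 7859 in KO, and the share over all 5′ ends was not counted. The KO cells are labelled as lacking mdig, so the KO list shows what the antibody returned from cells without its labelled target. The length summed over the genes was 48.0 kb in WT and 13.5 kb in KO, a ratio of 0.281 beside 0.298 for the whole lists. Of the 8 WT intervals 5 were not found in KO, beside 61.2% of all WT intervals, and 6 of 10 regions were at least 1.5 times shorter in KO, beside 72.2% of all 17410. The genes thus stood near the genome for this antibody.

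AXL had the widest MINA interval of these genes, 14.8 kb in WT from 41719601 to 41734400, across the 5′ end and over nearly the same stretch as its H3K4me3. None was listed there in KO, and 9.23% of the 10000 WT-only MINA intervals were at least as wide. At the 3′ end of AXL and mostly past it, on the further H3K4me3 interval, a MINA interval of 6.0 kb was listed in both genotypes. CD44 had intervals of 3.20 and 7.40 kb at and after its 5′ end in WT and none in KO. TGFBI had 4.0 kb in WT from 0.02 to 4.02 kb, and in KO only an interval that ended 4.18 kb upstream. At the transcription factors, ZEB1 had 3.8 kb in WT, from 1.90 kb upstream to 1.90 kb downstream of the 5′ end, and 3.0 kb in KO, from 0.90 kb upstream to 2.10 kb downstream. SNAI2 and TWIST1 had none in either genotype.

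VIM had 5.40 kb in WT and 3.0 kb in KO, with the upstream edge at 2.65 kb and 0.05 kb. At VIM and ZEB1 the shorter KO length came from upstream of the gene, and within the span alone KO was longer by 0.2 kb at each. CDH2 was the gene with MINA and no H3K4me3. Its WT interval of 4.0 kb, from 25755201 to 25759200, shared 3.40 kb with H3K9me3 and was not listed in KO. MINA lay on 5 of the 7 H3K4me3 intervals of 5′ ends in WT, beside 56.8% of all WT H3K4me3 intervals and 75.4% of the 13432 that were at least 3.60 kb wide. In KO it lay on 2 of 7, beside 34.7% of all and 55.7% of those at least 5.40 kb wide. By region, 2 of 10 were at least 1.5 times longer in KO, beside 12.0% of all, and both were intervals of 1.80 kb listed in KO only, 25.50 to 27.30 kb into AXL and upstream of TGFBI. They were 2 of the 5 KO intervals, beside 16.9% of all KO intervals not found in WT.

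The ratio at each gene was set beside that of the 5 Mb on either side, with the gene and its flanks left out, since long blocks of chromosomes differ between these lists. For H3K4me3 the neighbourhoods parted into 6 with ratios of 0.669 to 0.816 (VIM, ZEB1, CD44, FN1, AXL and CDH2) and 4 with ratios of 0.979 at TGFBI, 0.993 at TWIST1, 1.01 at SNAI2 and 1.11 at SPARC. The 2 genes whose H3K4me3 was wider in KO by 1.5 times or more lay in the second group. Their own ratios of 1.56 at SNAI2 and 1.5 at TGFBI were above those of their surroundings. CD44 (0.738 against 0.723), FN1 (0.794 against 0.812) and AXL (0.790 against 0.816) lay close to theirs over the whole window. For the region at the 5′ end alone the ratio was 0.849 at CD44, above its surroundings, and 0.750 at AXL, below them. VIM, at 0.917 against 0.777, and ZEB1, at 1.09 against 0.777, lay above.

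With TGFBI and SPARC, the neighbourhoods of TWIST1 (3.52) and SNAI2 (3.98) had the highest H4K20me3 ratios, and thus the same 4 genes as for H3K4me3, against 0.475 to 1.54 around the other 6. At SPARC the ratio at the gene was 3.55 and thus below its surroundings. The H4K20me3 interval over the 5′ end of AXL lay in a neighbourhood with a ratio of 1.01, and that of VIM in one of 0.502, so these intervals listed in KO only stood in stretches where H4K20me3 covered about the same length or less in KO. For H3K36me3 the neighbourhood of TGFBI had a ratio of 1.15 (2242.8 kb in WT and 2585.4 kb in KO), while the gene went from no interval to 37.6 kb. Around ZEB1 the H3K36me3 ratio was 0.953, against 0.642 at the gene. The part of the surrounding stretches in the values at the genes was not tested.

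For H3K9me3 the ratio was 0.601 around TWIST1 and 0.316 around CDH2, so the TWIST1 interval listed in KO only stood in a stretch with less H3K9me3 in KO. Around ZEB1 it was 0.227, below the 0.735 at the gene. Around SPARC it was 8.27, from 248.4 kb in WT to 2054.4 kb in KO, while SPARC itself had no H3K9me3 interval. MINA ratios around the genes with MINA ran from 0.211 at AXL to 0.465 at TGFBI. VIM (0.556), ZEB1 (0.789) and AXL (0.331) lay above their surroundings, and CD44, CDH2 and TGFBI below. The AXL ratio rested on the interval at and past its 3′ end and on 1.80 kb listed in KO only. At the AXL 5′ end the 14.8 kb of WT were not listed in KO.

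**Figure D4:**
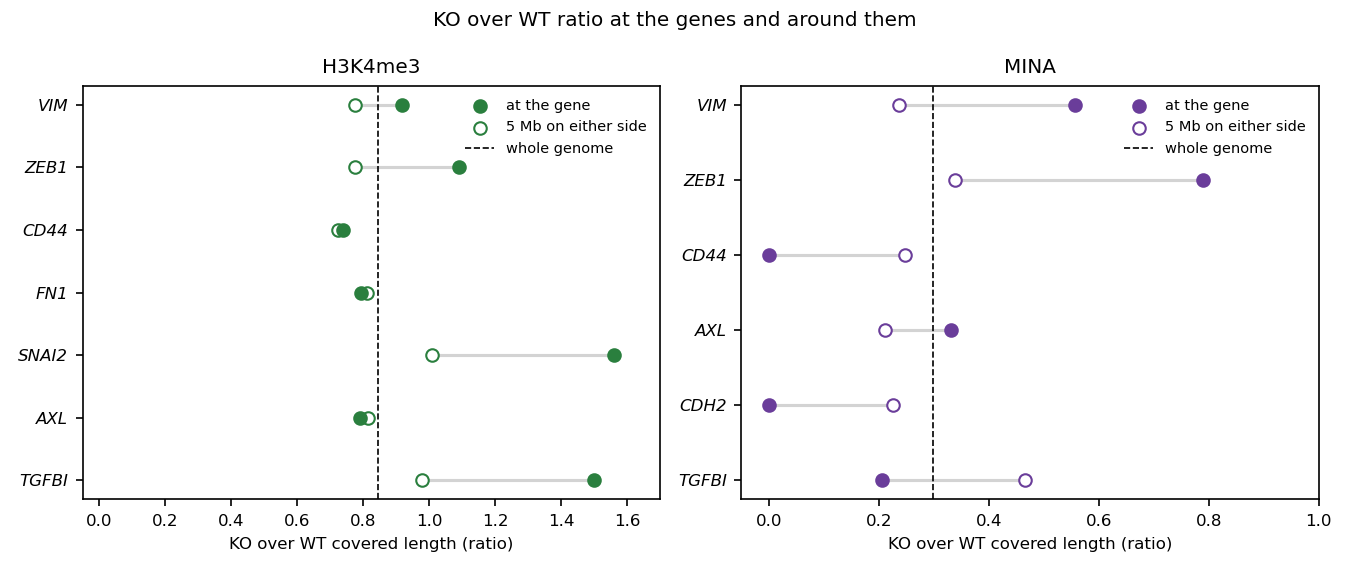
KO over WT ratio of covered length at each gene (filled points) and in the 5 Mb on either side (open points) for H3K4me3 and MINA, with the whole-genome ratio as a dashed line and genes listed in WT shown. SNAI2 and TGFBI lie at 1.56 and 1.5 for H3K4me3 with surroundings of 1.01 and 0.979, and CD44 and CDH2 lie at 0 for MINA.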

How the data were processed

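The deposited file holds 1 list of enriched intervals per ChIP library and a merged list, which was not used. The authors aligned reads with BWA and called intervals with SICER 1.1 on hg19, per the submitters' processing notes. The lists have no score column. The sources used here do not give the caller's settings, any scaling for depth or the control it was run against, and the input library was not analysed here. Starts and ends lie on a 200-bp grid and are given 1-based. Gene spans came from the list of genes, and 5′ ends from the strand in the RefSeq promoter table or, for SNAI2 and TWIST1, from general knowledge. An annotation of hg19 was not used, so exons and introns are not named and a planned list of other pathway genes was not counted. Covered lengths, intervals within 2 kb of 5′ ends, overlaps of at least 1 bp and joined regions were computed on chromosomes 1 to 22 and X. Python 3.11.15 and scipy 1.17.1 were used. The counts of intervals found in the other genotype and of joined regions were checked on simulated lists, and the other measures were not. Every gene is named. Intervals were to be named, by coordinates or distance from the 5′ end, where they lie over a 5′ end, are the widest of an antibody, or are in 1 genotype only. Genes, rules and lists were chosen with earlier results of these data known.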

Additional observations from a re-analysis of the deposited data

How the results depend on the processing

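The alternatives were no flank or one of 10 kb, merging of intervals within 5 kb, autosomes only, other windows at 5′ ends, overlap of at least 50% of the shorter interval, a 2-fold bound, and neighbourhoods of 1 Mb. Leaving out genes by their surroundings was chosen after seeing the data. A ratio or count within 1.5 times its value, or a share within its Wilson interval, was taken as kept. Those intervals are wide at so few members, for example 23.1% to 88.2% for MINA in KO. A share could thus hardly move, and the number kept says little for the shares. Of the values over all genes 98 were kept, 5 moved and 7 crossed a ratio of 1, and of those for single genes 74 were kept, 17 moved and 5 changed direction. The H3K36me3 ratio turned to 0.909 without SNAI2, TWIST1, SPARC and TGFBI and to 0.917 without SPARC and TGFBI, and the genome ratio, 1.00 from just above 1, was 1.00 from just below on autosomes. The H3K9me3 ratio turned to 0.967 with no flank, 0.989 with merging, 0.667 without those 4 genes and 0.864 without the 2 on chromosome 5. The H4K20me3 ratio went to 1.64 and 2.16 without the same genes. At 2-fold 0 H3K4me3 regions were longer and 1 H3K36me3 region was shorter in KO. With 1 Mb on either side 5 genes in place of 2 lay above their neighbourhood for H3K36me3. The 2 were SNAI2 and TGFBI, which had none in WT and so lay above whatever ratio their surroundings had. KO minus WT turned to 0.2 kb without flanks for H3K4me3 at VIM and for MINA at VIM and at ZEB1, and for H3K36me3 at FN1 to 0.841 kb with 10-kb flanks and 0.6 kb with merging. The cause of these changes was not tested. No paired analysis was possible because each antibody has 1 library per genotype. Depth is unknown, so an interval absent from a list may be a mark below the caller's limit.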
